A study of Mus musculus with 2 samples.

Results

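The genes described here encode the proteins of the mitochondrial ribosome. They were taken as the protein-coding genes of the GENCODE annotation whose symbol is Mrpl or Mrps followed by a digit, and there were 78 of 21938 protein-coding genes on chromosomes 1 to 19, X and Y. Another 5 annotated genes with such symbols are not protein-coding and were left out. The measurements are 2 DNase-seq libraries, labelled as biological replicates 1 and 2, from frontal cortex of female B6CASTF1/J mice aged 25 days. This strain is the F1 hybrid of C57BL/6J and CAST/EiJ, and the files are not split by parental allele. Both libraries carry the same donor identifier, so the spread between them may not be a spread between animals, and no second group exists to compare with. DNase I cuts accessible DNA in isolated nuclei, peaks are the accessible stretches, and footprints are short stretches inside them with fewer cuts than their surroundings, where a bound protein may shield the DNA. Since bulk tissue was used, a low peak value in every cell and a high value in a few cells cannot be told apart.

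The mitochondrial ribosome translates the few messages encoded by mitochondrial DNA, all of them subunits of the respiratory chain and ATP synthase. Its RNAs come from mitochondrial DNA, while all its proteins are encoded in the nucleus, made on cytosolic ribosomes and imported. Some of the proteins descend from those of bacterial ribosomes and others are found only in mitochondria. NRF1 and the ETS-family factor GABPA (also called NRF2) are textbook activators of nuclear genes for mitochondrial proteins, and YY1 is a zinc finger factor whose word often lies at or just after a start site.

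The tissue label was checked on marker genes. Promoter peaks were present in both libraries at all 6 pan-neuronal markers and all 6 excitatory cortical neuron markers, against 1 of 8 markers of liver, muscle and blood (Ckm, with values of 1.99 and 1.32). Over all protein-coding genes the share was 61.5%. The lists differ in CpG dinucleotides in the 1 kb around the 5′ end, with medians of 36, 25 and 11.5. Of other genes with 10 to 12 CpG, 23.5% had such a peak, and the lists were not matched for CpG. The check cannot tell frontal cortex from other tissue in which these neurons occur. The longer peak lists hold 85603 peaks in replicate 1 and 87847 in replicate 2, and the footprint lists hold 214072 and 189951 footprints. The number of reads is not given in the sources used here.

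Before the values, the promoter stretches show what the accessible DNA of these genes looks like. Shown are the 8 highest of the 14 members in which a footprint lay on an NRF1, ETS or YY1 word inside the strongest promoter peak in both libraries. Words are written 5′ to 3′ along the member's own strand and were searched on both strands. They are CGCATGCG for NRF1, which reads the same on both strands, CCGGAAG for ETS factors and AAGATGGCG for YY1. Capitals mark these words, the build is GRCm38.p6, and each stretch has up to 60 bases on either side of the word, ending at most 50 bases after the annotated 5′ end.
Mrpl17: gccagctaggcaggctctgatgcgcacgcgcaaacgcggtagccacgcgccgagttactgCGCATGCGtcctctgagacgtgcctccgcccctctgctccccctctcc
Mrpl32: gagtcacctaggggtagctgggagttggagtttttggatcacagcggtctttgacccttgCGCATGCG
Mrpl9: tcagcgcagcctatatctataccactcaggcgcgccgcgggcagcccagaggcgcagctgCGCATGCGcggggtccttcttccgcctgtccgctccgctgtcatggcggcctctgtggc
Mrpl22: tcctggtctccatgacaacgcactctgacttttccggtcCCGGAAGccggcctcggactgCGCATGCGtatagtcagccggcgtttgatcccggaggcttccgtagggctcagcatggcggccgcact
Mrpl18: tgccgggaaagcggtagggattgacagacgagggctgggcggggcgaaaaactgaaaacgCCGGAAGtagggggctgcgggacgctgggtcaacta
Mrpl34: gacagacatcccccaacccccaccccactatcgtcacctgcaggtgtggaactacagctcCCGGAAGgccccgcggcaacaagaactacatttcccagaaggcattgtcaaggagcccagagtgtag
Mrps27: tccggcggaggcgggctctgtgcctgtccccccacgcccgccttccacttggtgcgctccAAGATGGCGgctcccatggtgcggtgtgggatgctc
Mrpl37: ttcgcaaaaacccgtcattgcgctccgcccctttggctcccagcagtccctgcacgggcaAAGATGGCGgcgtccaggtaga

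The NRF1 word of Mrpl17 (chr7:105811050-105811157, minus strand) is annotated as 5′ untranslated exon, 6 bp after the 5′ end of the gene. The NRF1 word of Mrpl32 (chr13:14613116-14613183, minus strand) also lies in its untranslated first exon. In Mrpl9 (chr3:94443249-94443367, plus strand) and Mrpl22 (chr11:58171572-58171699, plus strand) the NRF1 word is centred at -5 and -25 bp from the 5′ end, and Mrpl22 has an ETS word next to it. The ETS word of Mrpl18 (chr17:12916296-12916391, minus strand) overlaps the untranslated exons of both Mrpl18 and Tcp1, which is transcribed the other way and encodes a subunit of the cytosolic chaperonin. The ETS word of Mrpl34 (chr8:71464829-71464955, plus strand) is centred at -67 bp from the 5′ end, with no annotated gene over it. The YY1 word of Mrps27 (chr13:99344740-99344835, plus strand) has 6 of its 9 bases in annotated coding sequence and the other 3 in the untranslated region. The YY1 word of Mrpl37 (chr4:107066819-107066900, minus strand) lies in the untranslated region.

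Each of the 78 genes had a promoter peak, and it was there in both libraries (100%, exact 95% interval 95.4% to 100%, counting error over genes only). A promoter peak here is a peak that overlaps the 1 kb on either side of any annotated transcription start. Over all protein-coding genes the share was 61.5%, and over other genes given the members' CpG content it was 85.8%. CpG content was the number of CpG dinucleotides within 500 bp on either side of the annotated 5′ end, in 20 equal-sized bins. Each gene's strongest peak in replicate 1 overlapped its strongest peak in replicate 2, in 78 of 78 genes and in 93.6% of other genes with a promoter peak. The centre of the peak lay within 100 bp of an annotated start in 68 members in replicate 1 (87.2%) and 69 in replicate 2 (88.5%), against 64.3% and 65.9% of other genes, with a median position of -19 and -22 bp (negative is upstream). The peak covered an annotated start in 73 and 71 members, or 93.6% and 91.0%, against 73.9% and 72.2% of other genes. A single promoter peak in both libraries was seen in 36 genes, and the largest number was 7, at Mrpl48. The share of all genes with a single promoter peak is not given here, so this count cannot be called particular to the family.

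For 7 genes the strongest peak was centred over 500 bp from the annotated 5′ end in replicate 1. At 6 of them, all but Mrpl47, the centre lay within 60 bp of another annotated start in both libraries, and at Mrpl47 it was 326 and 266 bp from the nearest one. The 7 are Mrpl1, Mrpl20, Mrpl47, Mrpl48, Mrpl35, Mrps24 and Mrpl33, and for the last 3 the distance was 3208, 7980 and 17126 bp. These 3 had no peak within 1 kb of the annotated 5′ end itself in at least 1 library. With that end alone as the start, 75 of 78 members and 56.7% of all genes kept a peak in both. The share of other genes with the strongest peak over 500 bp from that end is not given here.

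The strength of a promoter peak was taken as the authors' read-depth normalized signal, on a scale that is not stated. The median over the 78 genes was 2.80 for the mean of both libraries, with a middle range from 1.92 to 4.01 and extremes of 1.22 and 8.98. By library the median was 2.77 in replicate 1 and 2.80 in replicate 2. Over all genes whose promoter was open in both libraries the median was 2.34, and other genes given the members' CpG content had 2.41. Of the 78 genes, 48 lay above the all-gene median. Within its own CpG bin, a member stood at the median percentile of 62.7. In their bins 50 of 78 members were above the median, 11 above the 90th percentile, 6 below the 25th and 0 below the 10th. Counting CpG around the peak in place of the 5′ end, a choice made after seeing the data, gave a median percentile of 57.8 and a median of 2.52 for other genes.

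**Figure D1:**
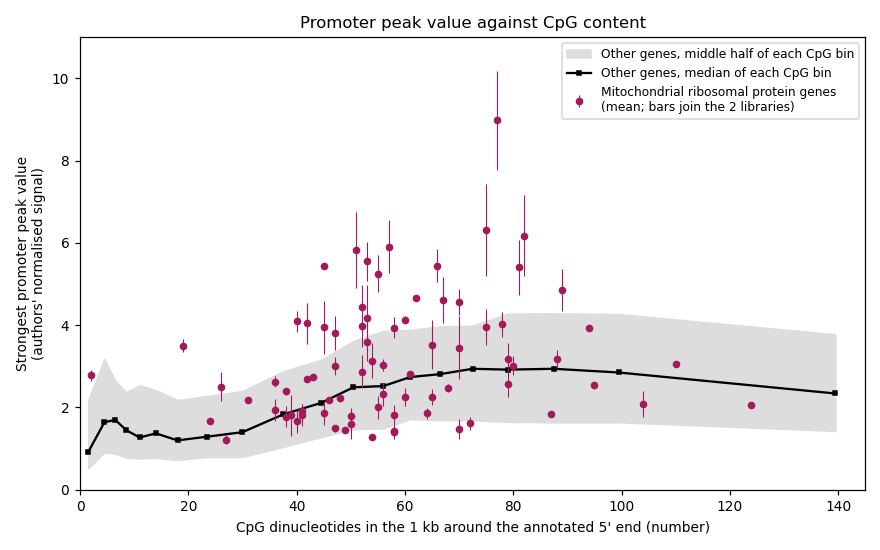
Strongest promoter peak value (authors' normalised signal, y axis) against the number of CpG dinucleotides within 500 bp on either side of the annotated 5′ end (x axis). Points are the 78 mitochondrial ribosomal protein genes as the mean of 2 libraries, vertical bars join the libraries, and the black line and grey band are the median and the 25th to 75th percentile of other genes with a promoter peak in each CpG bin. Members spread on both sides of the line, with Mrpl17 at 8.98 far above it and Mrpl33 at 1.22 the lowest.

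Mrpl17, a large-subunit protein at the polypeptide exit side, had the highest value, 7.80 in replicate 1 and 10.2 in replicate 2 (8.98 ± 1.67, SD, n = 2). Mrps18b, a small-subunit protein, followed with 5.19 and 7.42 (6.31 ± 1.58, n = 2). Mrpl18, the relative of the 5S rRNA binding protein of bacteria, had 5.19 and 7.17 (6.18 ± 1.40, n = 2). In each of these 3 genes replicate 2 was the higher library. Mrpl34 gave 5.26 and 6.56 (5.91 ± 0.915, n = 2), and Mrpl47, a relative of bacterial L29 near the exit tunnel, gave 4.89 and 6.74 (5.82 ± 1.31, n = 2). Mrpl45, which ties the ribosome to the inner membrane, gave 5.07 and 6.03 (5.55 ± 0.680, n = 2). Mrpl2, which lies near the peptidyl transferase centre, gave 5.05 and 5.86 (5.45 ± 0.575, n = 2). The 8 highest end with Mrpl44, a protein with a ribonuclease III-like fold, at 5.44 in both libraries. Of these 8, 7 belong to the large subunit and Mrps18b to the small one. For Mrps18b, Mrpl18, Mrpl34, Mrpl47, Mrpl2 and Mrpl44 the peak also lay within 1 kb of a start of another protein-coding gene. Such values cannot be assigned to the member alone. At Mrpl47 the other gene was Ndufb5, and the peak centre was 326 and 266 bp from the nearest Mrpl47 start. Mrpl17 and Mrpl45 had no such neighbour. The order among the genes from Mrps18b to Mrpl44 is within the spread between libraries.

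At the other end, Mrpl33 had 1.12 and 1.32 (1.22 ± 0.146, n = 2), at its distant start site. Mrps25 had 1.29 and 1.28, Mrpl13 had 1.57 and 1.23, and Mrps5 had 1.57 and 1.30. Mrps15 had 1.44 and 1.48, and Mrpl53 had 1.71 and 1.22. Most neighbours in this order overlap in their values, but both values of Mrps15 lay above both of Mrps25 and of Mrpl33. The 8 highest and 6 lowest were chosen by these same values, so their distance from each other is a description only.

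Grouped by role, the large-subunit genes classed as mitochondria-specific had the highest class median. It was 3.58 over 21 genes, from Mrpl53 at 1.47 to Mrpl45 at 5.55. The 30 large-subunit genes with a bacterial relative had a median of 2.76, and they hold both extremes of the family, Mrpl33 and Mrpl17. The 16 small-subunit genes with a bacterial relative had a median of 2.14, from Mrps5 at 1.43 to Mrps28 at 4.61 ± 0.777 (4.06 and 5.16, n = 2). The 10 small-subunit genes classed as mitochondria-specific, a class that holds Mrps18b although its protein is related to bacterial S18, had a median of 2.25, from Mrps25 at 1.29 to Mrps18b at 6.31. Mrps36, now known as a component of the 2-oxoglutarate dehydrogenase complex and not of the ribosome, had 2.47 and 3.26. By symbol, 35 of 49 Mrpl genes and 13 of 29 Mrps genes lay above the all-gene median, with medians of 3.03 and 2.25. The classes overlap widely, and no test was made between them. The mitochondria-specific large-subunit class also had the most CpG, with a median of 70. The large-subunit genes with a bacterial relative had 49.5, and the small-subunit classes had 53.5 (bacterial relative) and 57.5 (mitochondria-specific). In the class with 70, 61.9% of strongest peaks lay within 1 kb of another protein-coding gene's start, and the next highest class had 43.3%. Class values were not matched for either, and an effect of role was not tested.

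**Figure D2:**
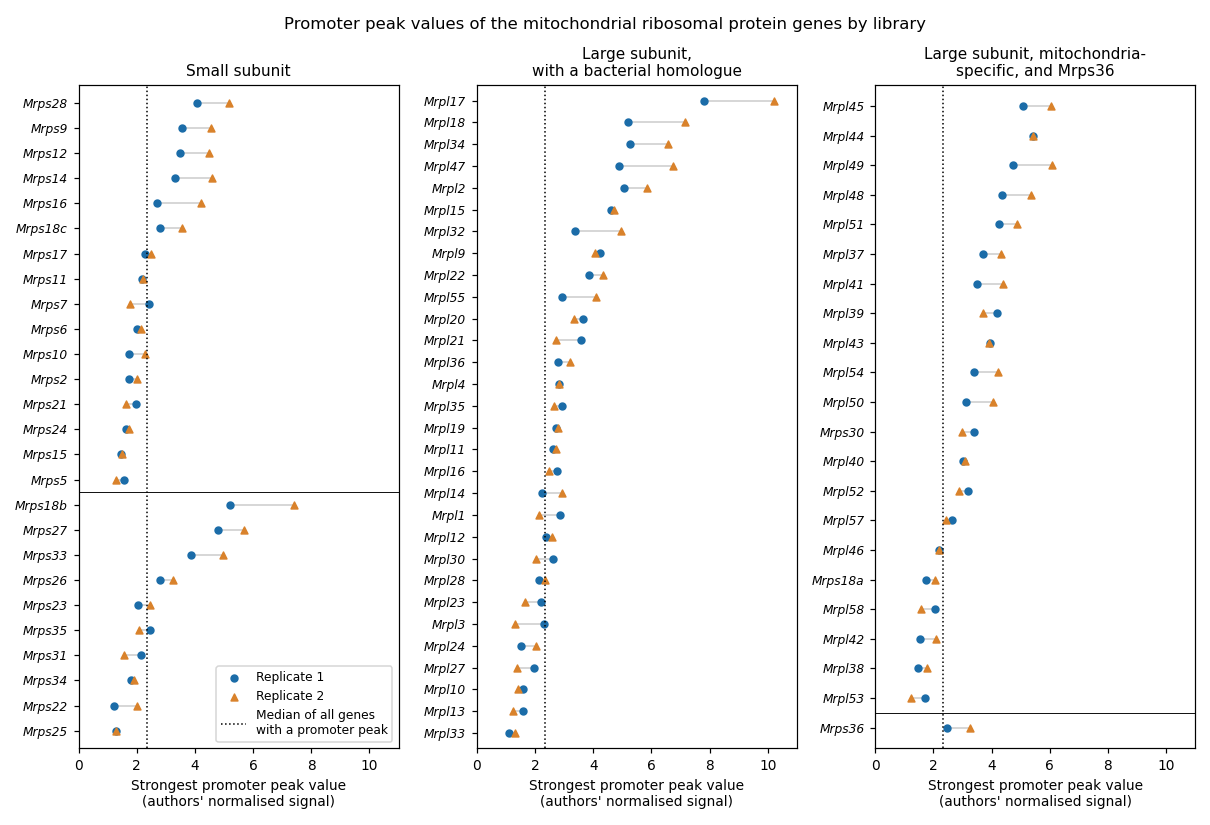
Strongest promoter peak value of each of the 78 genes in replicate 1 (circles) and replicate 2 (triangles), by subunit and by whether the protein has a bacterial homologue (x axis, authors' normalised signal, y axis, genes ordered by mean within a class). In the left panel a line separates genes with a bacterial homologue (above) from mitochondria-specific ones, in the right panel it sets off Mrps36, and the dotted line marks the all-gene median of 2.34. Among the highest genes triangles lie mostly to the right of circles, and near the bottom both orders occur.

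Replicate 2 was the higher library at most of the strong promoters. On the log2 scale, the ratio of replicate 1 over replicate 2 had a median of -0.12 and an SD of 0.31 over the 78 genes, against -0.15 and 0.31 over all genes with a promoter peak. Replicate 2 was higher in 52 of the 78, a count for which the share over all genes is not given here. It was higher in 19 of the 20 members with the highest values and in 10 of the 20 with the lowest, and 89.8% of other genes at or above the value of those highest members were also higher in replicate 2. The largest ratio between libraries was at Mrpl3, a peptidyl transferase centre protein, with 2.31 in replicate 1 and 1.32 in replicate 2, a ratio of 1.75. Mrps22, a small-subunit protein, had 1.23 and 1.99, a ratio of 0.620. Mrps16 had 2.68 and 4.21, a ratio of 0.637. Among these 3 genes, only Mrpl3 had the higher value in replicate 1.

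The peaks of the family were about as wide as those of other genes. The median width was 240 bp in replicate 1 and 220 bp in replicate 2, against 260 and 240 bp over all genes with a promoter peak. Averaged over libraries and genes the width was 258 bp, and other genes given the members' CpG content had 266 bp. Against its own CpG bin, 38 of the 78 members were wider than the median. The widest was Mrpl13 with 420 and 480 bp, a gene among the 6 lowest by value. Mrpl40 followed with 440 and 380 bp, Mrps18b with 400 and 360 bp and Mrps28 with 540 and 220 bp. Mrps28 ranked among the widest through replicate 1 alone.

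On average, footprints per peak and per length of peak were slightly more numerous in the family than over all genes, in each library. The median per peak was 4 in the family and over all genes, in both libraries. The strongest promoter peak held on average 4.86 footprints in replicate 1 and 4.23 in replicate 2, against 4.59 and 3.98 over all genes with such a peak. Averaged over libraries this was 4.54, against 4.23 for other genes given the members' CpG content. Per 100 bp of peak the family had 1.77 and 1.75 footprints, and all genes had 1.60 and 1.58. Cytosolic ribosomal protein genes had 1.81 and 1.82 per 100 bp, and respiratory chain and ATP synthase genes 1.84 and 1.79, both above the family in each library. Counted over the whole 1 kb around the starts the order turned, with 6.14 footprints per member and 7.00 for other genes given the members' CpG content. At least 1 footprint lay in the strongest peak in both libraries in 77 of 78 genes, and over all genes with such a peak the share was 96.1%. The exception was Mrpl47, with 3 footprints in a 200 bp peak in replicate 1 and 0 in an 80 bp peak in replicate 2. Most footprints were seen at Mrps18b, with 10 and 9, then at Mrpl40, with 10 and 8, Mrps28, with 13 and 5, and Mrpl34, with 8 and 9.

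The footprints gathered close to the 5′ end, on both sides of it and most densely just upstream. In the 50 bp before it, the family had 1.06 footprints per gene in replicate 1 and 1.14 in replicate 2, and other genes with a promoter peak had 0.718 and 0.693. From 50 to 100 bp after the 5′ end the family had 0.667 and 0.513, and other genes 0.474 and 0.389. These other genes were not matched for CpG content. Of the footprints within 500 bp of the 5′ end, 55.0% and 60.1% lay within 100 bp of it, against 45.9% and 50% for other genes. The footprints inside the strongest peaks, 379 and 330 in all, had a median width of 11 bp in replicate 1 and 12 bp in replicate 2, and other genes had 11 bp in both. Long footprints of 30 bp or more made up 7.12% and 7.58% of them, against 4.85% and 6.46% for other genes, and the longest had 58 and 55 bp.

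**Figure D3:**
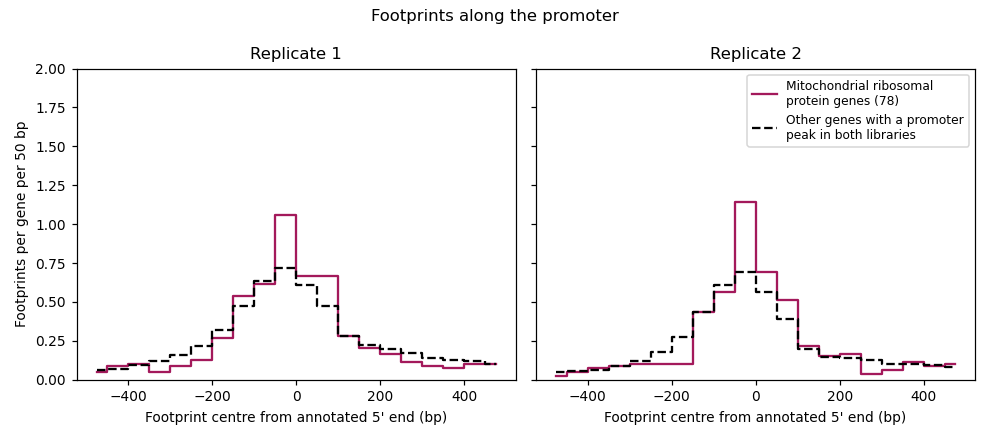
Footprints per gene in 50 bp steps (y axis) by distance of the footprint centre from the annotated 5′ end (x axis, bp, negative is upstream), for replicate 1 (left) and replicate 2 (right). The solid line is the 78 mitochondrial ribosomal protein genes and the dashed line other genes with such a peak in each library. In the 50 bp before the 5′ end the solid line reaches 1.06 and 1.14, above 0.718 and 0.693.

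Some of the genes lie head to head with a neighbour. A head-to-head partner is a protein-coding gene on the opposite strand whose 5′ end lies upstream, at most 1 kb away. There were 19 such members of 78 (24.4%), against 7.23% of all protein-coding genes and 11.8% of other genes with a promoter peak given the members' CpG content. Respiratory chain and ATP synthase genes had 26.9% and cytosolic ribosomal protein genes 10.9%. The 5′ ends were a median of 81 bp apart, and 18 of the 19 pairs were at most 300 bp apart. In 18 of the 19 pairs, member and partner had the same strongest peak in both libraries, so their values are the same number and not separate measurements. With 5′ ends this close the 1 kb windows of both genes largely coincide, so this count is not a trait of the family. Its share over other pairs is not given here. By a looser measure, 95.3% of other genes with a partner and a promoter peak had the strongest peak within 1 kb of another protein-coding gene's start. In a wider sense, the strongest peak of 35 members (44.9%) lay within 1 kb of a start of another protein-coding gene, against 19.7% of all genes with a promoter peak.

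The highest shared peak was that of Mrps18b and Ppp1r10, a nuclear regulatory subunit of protein phosphatase 1, with 5.19 and 7.42. Its centre lay at -432 bp from the Mrps18b 5′ end in both libraries, beyond the 5′ end of Ppp1r10, which is 45 bp away, and so inside the Ppp1r10 gene. The middle 300 bases of the stretch covered by both libraries' peaks (chr17:35916671-35916970, minus strand, GRCm38.p6) follow, and capitals here mark bases inside footprints of both libraries.
Mrps18b and Ppp1r10: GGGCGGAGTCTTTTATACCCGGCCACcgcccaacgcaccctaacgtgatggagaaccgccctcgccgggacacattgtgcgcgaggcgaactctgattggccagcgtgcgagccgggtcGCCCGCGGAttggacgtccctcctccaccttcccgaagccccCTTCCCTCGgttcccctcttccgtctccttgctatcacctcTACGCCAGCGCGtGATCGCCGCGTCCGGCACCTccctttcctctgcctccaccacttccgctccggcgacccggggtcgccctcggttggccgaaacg

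Of the 300 bases, 76 lay in footprints of both libraries and the stretch has 36 CpG dinucleotides. Mrpl2 shared a peak of 5.05 and 5.86 with Klc4, a kinesin light chain gene. Mrpl49 shared 4.74 and 6.08 with Fau, whose product carries the cytosolic ribosomal protein S30. The gene pair Mrps27 and Ptcd2, which both encode mitochondrial pentatricopeptide repeat proteins, had 4.80 and 5.70. These 4 pairs were higher in replicate 2, as most strong promoters were.

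Several partners also act in mitochondria or in protein synthesis and turnover. Mrps12, a decoding centre protein, shared 3.48 and 4.47 with Sars2, the mitochondrial seryl-tRNA synthetase. Mrpl36 shared 2.78 and 3.21 with Ndufs6, a complex I subunit, and their 5′ ends overlap by 29 bp. Mrpl32 shared 3.37 and 4.96 with Psma2, a subunit of the proteasome core. No test was made of whether partners of one function are more frequent than in other families.

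Other partners act in the nucleus or in cell division. Mrpl51 shared 4.25 and 4.87 with Ncapd2, a condensin subunit. Mrpl40 shared 3.03 and 3.08 with Hira, a chaperone of histone H3.3. Mrpl57 shared 2.63 and 2.45 with Ska3, a kinetochore protein. The DNA repair genes among the partners are Helq, with which Mrps18c shared 2.81 and 3.57, and Eme2, with which Mrps34 shared 1.80 and 1.90. Mrpl50 shared 3.12 and 4.04 with Zfp189, a zinc finger gene.

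The rest of the shared peaks were those of Mrpl37 with Cyb5rl (3.72 and 4.33), Mrpl41 with Pnpla7 (3.51 and 4.38), Mrpl54 with Apba3 (3.41 and 4.22), Mrpl30 with Mitd1 (2.61 and 2.04) and Mrpl10 with Lrrc46 (1.59 and 1.42). Mrpl41 and Pnpla7 have the widest gap, 935 bp, and their common peak was centred at -62 and -52 bp from the Mrpl41 5′ end. Mrps5 and Zfp661 did not share a strongest peak in either library. Mrps5 had 1.57 and 1.30 there, and Zfp661 had 3.37 and 4.03, so both values of the partner were above both of the member. Mrps11 and Mrpl46, both members, share 1 peak of 2.19 and 2.20, but their 5′ ends overlap by more than the 100 bp the rule allows, and they are named here after their values were seen.

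Members with a head-to-head partner had a median value of 3.81 over 19 genes, and those without one had 2.58 over 59. The same order was seen in other genes, with 3.50 against 2.19. Genes with a partner also had more CpG, with medians of 66 against 53 in members and 67 against 36 in other genes. These values were not matched for CpG content, and a link between partner and peak value was not tested. The ranges overlap, since members without a partner include Mrpl17 at 8.98, and members with one include Mrps5 at 1.43.

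**Figure D4:**
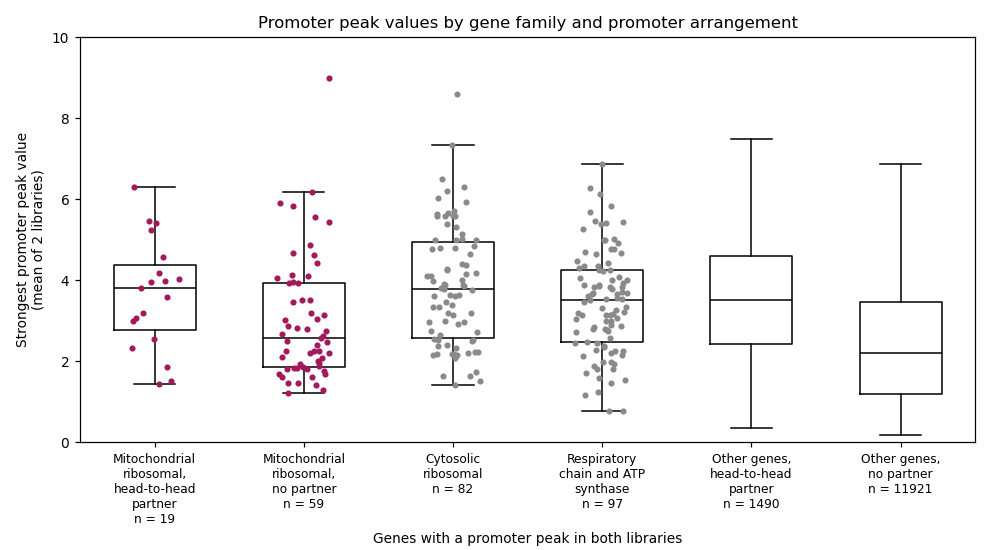
Strongest promoter peak value (authors' normalised signal, mean of 2 libraries, y axis) for genes whose promoter was open in both libraries, by family and by head-to-head protein-coding partner (x axis). Boxes span the 25th to 75th percentile with the median as a line, whiskers reach the last value within 1.5 box heights, points are single genes (drawn for the first 4 boxes), and more extreme values of the last 2 boxes are not drawn. Members with a partner have a median of 3.81, those without one 2.58, cytosolic ribosomal protein genes 3.79 and respiratory genes 3.50.

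Words for transcription factors were counted in the 300 bases from 250 before to 50 after the annotated 5′ end, on both strands. A match is a description of the letters and not evidence of binding. Among the NRF1, ETS and YY1 words, the ETS word CCGGAAG was the most frequent, in 27 of 78 members (34.6%, exact 95% interval 24.2% to 46.2%). Over all promoters it was in 10.8%, and over other genes given the members' CpG content in 16.5%. The NRF1 word CGCATGCG was in 5 members (6.41%, interval 2.11% to 14.3%), against 2.61% of all promoters and 3.54% given the CpG content. The YY1 word AAGATGGCG was in 7 members (8.97%, interval 3.68% to 17.6%), against 1.70% and 2.55%. At least 1 of these 3 words was in 34 members (43.6%), against 14.2% of other genes. That last share was not standardised to CpG content, so it is a low comparator. For the ETS word alone, the share of other genes rose from 10.7% to 16.5% when standardised. No 2 words of different factors overlapped each other in a member, and 5 members had 2 of the 3, namely Mrpl17, Mrps27, Mrpl22, Mrps10 and Mrps18a.

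By position, 28 of the 31 ETS words in members (90.3%) lay within 100 bp of the 5′ end, against 77.3% of the ETS words of other genes. Of the 7 YY1 words, 5 lay after the 5′ end, as did 56.2% of those of other genes, and the median position was 21 bp into the gene. In Mrps27 and Mrps10, 6 of the 9 bases of the YY1 word are annotated coding sequence, and in Mrps11 the word covers 6 coding and 3 untranslated bases of its neighbour Mrpl46.

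Footprints fell on these words unequally. The NRF1 word was overlapped by a footprint (at least 4 bases) in both libraries in 5 of 5 members, which are Mrpl17, Mrpl32, Mrpl9, Mrpl22 and Mrpl10, and in 74.9% of other genes with the word and a promoter peak. The YY1 word was overlapped in 5 of 7 members (71.4%), which are Mrps27, Mrpl37, Mrps11, Mrps10 and Mrpl42, against 27.9% of such other genes. None of the 5 YY1 words lay wholly inside a footprint in both libraries. The ETS word was overlapped in 5 of 27 members (18.5%), close to 19.9% of other genes, and these are Mrpl18, Mrpl34, Mrpl43, Mrpl52 and Mrpl3. Peak values of members were not higher with the ETS word, with a median of 2.25 over the 27 members that have it and 3.0 over the 51 that do not, while other genes had 2.89 with it and 2.21 without. These 2 comparisons were not matched for CpG content and differ in it. The median CpG number was 58 with the word and 53 without in members, and 62 and 35 in other genes. The 4 members with an NRF1 word in a footprint inside the strongest peak of both libraries had values of 4.09 to 8.98, and the fifth, Mrpl10, had 1.50.

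**Figure D5:**
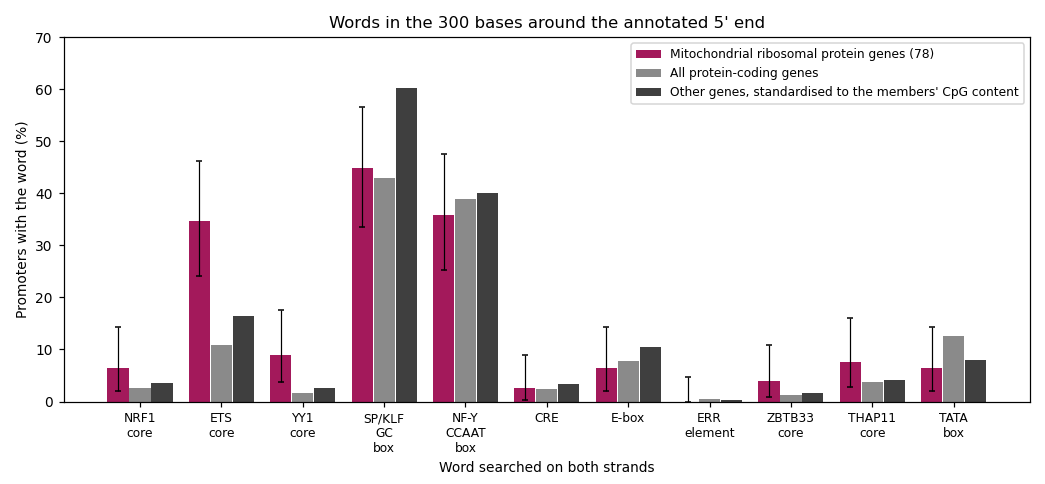
Share of promoters (y axis, %) with each of 11 words (x axis) in the 300 bases around the annotated 5′ end. Bars are the 78 mitochondrial ribosomal protein genes with exact 95% intervals (red), all protein-coding genes (grey) and other genes standardised to the members' CpG content (black). The ETS word is in 34.6% of members against 10.8% of all genes, while the GC box is in 44.9% of members against 60.3% of other genes of the same CpG content.

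The other words searched gave a mixed picture. The GC box, the cyclic AMP response element and the estrogen-related receptor element were also picked for factors with textbook roles at nuclear genes for mitochondrial proteins. The rest are common promoter words. The GC box GGGCGG, bound by SP and KLF factors, was in 35 members (44.9%), near the 43.0% of all promoters and below the 60.3% of other genes given the members' CpG content. The share was much the same in cytosolic ribosomal protein genes (44.6%) and in respiratory chain and ATP synthase genes (44.2%). The CCAAT box (CCAAT) was in 28 members (35.9%), against 39.0% and 40.0%. The TATA box (TATAAA) was in 5 (6.41%), against 12.6% and 7.97%, and the E-box (CACGTG) in 5 (6.41%), against 7.75% and 10.4%. THAP11's word ACTACAA was in 6 (7.69%, against 3.70% and 4.18%), ZBTB33's CTCGCGAG in 3 (3.85%, against 1.21% and 1.56%) and the cyclic AMP response element TGACGTCA in 2 (2.56%, against 2.43% and 3.28%). The estrogen-related receptor element TCAAGGTCA was in 0 of 78, for which the exact interval reaches 4.62%, and in 0.474% of all promoters.

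The wider pathway of mitochondrial translation was open as well. A peak was found in both libraries at every gene of the 5 lists examined, against 61.5% of all protein-coding genes. The lists had median CpG numbers of 57 to 62. Of other genes with 54 to 58 and 59 to 63 CpG, 90.4% and 91.6% had such a peak. The exact intervals of the 5 lists start between 47.8% and 84.6%, so none excludes these 2 shares. The lists are too short to show an excess over other genes of such CpG content. By peak value, the 5 mitochondrial ribosome proteins under other symbols had a median of 2.47. They ranged from Gadd45gip1, a large-subunit protein, with 1.42 and 1.26, to Aurkaip1, a small-subunit protein, with 3.81 and 3.49. The 22 assembly and rRNA factors had a median of 2.80, from Mrm2, an rRNA methyltransferase, with 1.18 and 0.874, to Mtg1, a GTPase of large-subunit assembly, with 5.59 and 5.13. The 11 translation factors had a median of 2.55, from Mtrf1, of the release factor family, with 1.08 and 1.23, to Tufm, the elongation factor Tu, with 3.59 and 4.62. The medians of these 3 lists lie between the class medians of the ribosomal proteins, while Mrm2 and Mtrf1 have means below that of the lowest member, Mrpl33.

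The 17 mitochondrial aminoacyl-tRNA synthetases stood higher, with a median of 3.53, from Iars2 with 2.10 and 1.84 to Vars2 with 4.35 and 5.06. The 6 mitochondrial transcription genes had a median of 3.12. Polrmt, the mitochondrial RNA polymerase, had 3.36 and 5.43, and Mterf1a, a termination factor, had 0.446 and 0.622, below every member of the family.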

How the data were processed

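Frontal cortex nuclei of 1 group were measured by DNase-seq in 2 libraries, and peaks and footprints were called per library on mm10, per the text deposited beside them. For the aligner, the callers and the number of reads, names or values were not given in the sources used here. The deposited peak lists give 1 read-depth normalized signal per peak, made by the authors, and the deposited footprint lists give positions and 1 constant, not used as a measurement. The longer of the 2 peak lists of each library was the main list.

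Gene models were GENCODE vM21 and sequence was GRCm38.p6 from RefSeq. For each gene the strongest peak overlapping by at least 1 bp the 1000 bp on either side of any annotated start was taken, and footprints were those wholly inside it. CpG-standardised values average, over the members, the share or median of other genes in the member's bin of 20. A head-to-head 5′ end may overlap by up to 100 bp. No test was made, since there is 1 group. Exact intervals are Clopper-Pearson at 95% and cover counting error over genes only. Named genes are the 8 highest and 6 lowest, the 4 widest, the 4 with most footprints and any without, the 3 largest ratios, class extremes and all with a partner. The members, lists and words were chosen with earlier results of these data known. The peak assignment, the standardised share and the interval operations were tested on simulated data. Alternatives were the shorter list, other windows, start sets, bins, overlap rules and each library alone. Tools were Python 3.11.15, numpy 2.4.6, pandas 2.3.3, scipy 1.17.1 and matplotlib 3.10.9.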

Additional observations from a re-analysis of the deposited data

How the results depend on the processing

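All 78 genes kept a promoter peak in both libraries with the shorter peak lists, with windows of 500 bp or 2.5 kb, with the peak centre inside the window and with the stronger 50% of peaks. With the annotated 5′ end alone, 75 did, and Mrpl33, Mrpl35 and Mrps24 were lost. The median value was 2.84 with the 2.5 kb window and 2.87 with the 5′ end alone, against 2.80. The standardised share of other genes with a promoter peak was 84.6% with CpG counted in the 300-base window, and their median value was 2.52 with CpG counted around the peak, an alternative chosen after seeing the data. Footprints per member were 6.14 within 1 kb of a start. With any annotated start of either gene, 32 members (41.0%) had a head-to-head partner, against 11.2% of all genes. With the word wholly inside the footprint in both libraries, the ETS word counted in 3 members and the YY1 word in 0.

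With each library alone, the count of members ranged from 78 to 78, the median value from 2.77 to 2.80, the median width from 220 to 240 bp, the footprints per peak from 4.23 to 4.86 and the standardised share from 86.9% to 88.4%. No paired analysis was possible because there is only 1 group. The number of reads is unknown, so a footprint that is missing in 1 library may lie below what its depth can show.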

Other observations

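Promoters of 2 families that work beside the mitochondrial ribosome, which makes subunits of the respiratory chain, were described in the same way. Of 92 protein-coding genes with symbols of cytosolic ribosomal proteins, a list that can hold retrotransposed copies, 82 had a promoter peak in both libraries (89.1%), with a median value of 3.79. Of 104 protein-coding genes with symbols of the respiratory chain and ATP synthase, a list that can hold assembly factors, 97 had one (93.3%), with a median value of 3.50. Both medians are above the 2.80 of the mitochondrial ribosomal protein genes, and no test was made of these differences.

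The 3 families carried the words of NRF1, ETS factors and YY1 in different shares. The NRF1 word was in 6.41% of mitochondrial ribosomal, 1.09% of cytosolic ribosomal and 7.69% of respiratory promoters. The ETS word was in 34.6%, 25.0% and 22.1%, and the YY1 word in 8.97%, 5.43% and 4.81%. Each of these ETS and YY1 shares is above that of all promoters, which is 10.8% and 1.70%. Other genes given the CpG content of the mitochondrial ribosomal genes had 16.5% and 2.55%, nearer to these shares. For the NRF1 word the share of all promoters was 2.61%, above that of the cytosolic ribosomal genes.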
